A study of Drosophila melanogaster with 4 samples.

Results

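A set of 7 genes for proteins of the fly's blood clot or its hemolymph was compared between ovarian tumors and control ovaries of Drosophila melanogaster. They are fon, Hml, Tg, Fbp1, Tig, Glt and Tsf1, taken by their FlyBase symbols, and all 7 were found among 17773 listed genes. Control flies carried tj-GAL4 and tubulinGal80ts. Tumor flies carried the same 2 elements plus UAS-aPKCΔN and UAS-RasV12, which encode an atypical protein kinase C without its N-terminal part and an oncogenic Ras. The tj-GAL4 driver acts in somatic follicle cells, and tubulinGal80ts holds it off until flies are kept warm. All flies were adult females kept for 20 days at 29 °C. Control tissue was limited to follicles before yolk uptake, a limit not given for tumors, so effects of the transgenes and of the choice of tissue cannot be told apart. Both tissues were dissociated with a protease from Bacillus licheniformis, and cells were filtered so that follicle epithelium was enriched. Each genotype had 2 libraries, described as biological replicates, with 41248098 and 50971937 estimated counts for control and 47512735 and 42739528 for tumor. The title of the study concerns a clotting disorder and host death, and the comparison asks whether the tumor tissue itself carries RNA of clotting genes.

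Fly hemolymph clots when soluble proteins and proteins released by blood cells, the hemocytes, form fibers that trap cells and microbes. Hemolectin, the product of Hml, is a large hemocyte protein with domains like those of von Willebrand factor. Fondue, from fon, is a clot protein that is crosslinked by the transglutaminase made from Tg, and phenoloxidase later hardens and darkens the clot. Tiggrin (Tig) is an integrin ligand of the extracellular matrix, and glutactin (Glt) is a basement membrane glycoprotein. Fbp1 is a fat body protein involved in the uptake of larval serum proteins, and transferrin 1 (Tsf1) carries iron in the hemolymph. Hemocytes and the fat body are well-known sources of such proteins.

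The genes fon, Hml, Tg, Tig, Glt and Tsf1, 6 of the 7, rose in tumor (edgeR quasi-likelihood test, Benjamini-Hochberg adjusted p below 0.05 over all 9402 tested genes). In the same test 2202 genes, 23.4% of those tested, were higher and 1989, or 21.2%, were lower, 44.6% in all. All 7 passed the filter on low counts, but fon and Fbp1 did so only through their tumor libraries. Genes that low in control could enter the test only if high in tumor, so the direction of fon and Fbp1 is not separate support. None of the 7 fitted log2 fold changes was below 0. Fbp1 did not pass the threshold, with an edgeR adjusted p of 0.12. Its change was 3.05 ± 1.25 on the log2 scale (± SE of the fit here and below, n = 2 libraries per group). The median log2 fold change of the 7 genes was 4.33, with a range of 1.65 to 6.26, beside 0.02 over all tested genes. Both tumor counts lay above both control counts for each of the 7, which was also so for 40.5% of the tested genes. Of all calls 52.5% were higher. This share was 45.1% with upper-quartile factors, 66.3% and 66.8% on the TPM scale and 83.1% with scaling by ribosomal protein genes. Fewer cells of a type and less RNA per cell cannot be told apart in such bulk libraries.

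Counting limits these values in a particular way. The target of each gene covers its exons, its introns and 2000 bases on either side, so targets of neighbors overlap and the quantifier divides shared reads between them. An own count of 0 can thus occur where reads were assigned to an overlapping target. A locus sum was therefore formed for each gene over all targets in which any of its exons lie. On locus sums 6 of the 7 were again higher, against 29.2% of all tested genes (28.3% were lower, 57.4% in all), but fon was now the gene that did not pass, and Fbp1 did. The median log2 fold change of the 7 was 1.52 on this scale, beside 0.00 over all genes.

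**Figure D1:**
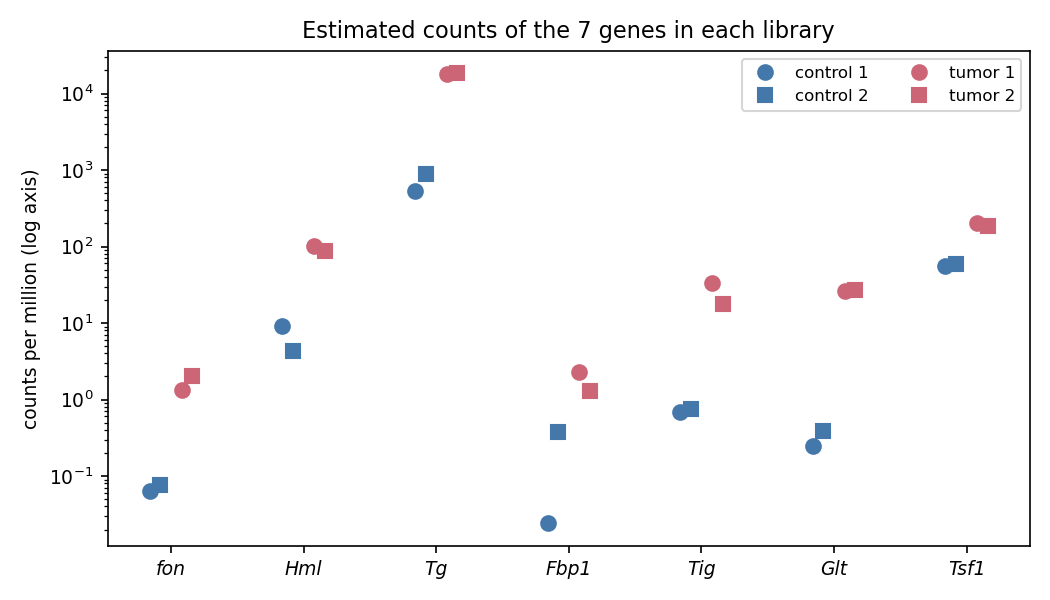
The 7 genes in CPM (counts scaled to a common library total), on a log axis, with circles for replicate 1, squares for replicate 2, blue for control and red for tumor. Both tumor points lie above both control points for every gene, and Tg is the highest of the 7 in each library.

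The order of the genes by level was compared in TPM, which divides counts by target length, introns and flanks included. In tumor Tg was highest with 6522 and 6844 TPM, followed by Tsf1 with 194 and 188, Hml with 39.2 and 34.96, Glt with 22.9 and 24.0, and Tig with 19.4 and 10.6. The lowest were Fbp1 with 2.19 and 1.28 and fon with 1.33 and 2.12 TPM. The tumor libraries of Fbp1 and fon overlapped, and no other pair of neighbors in this order did. In control Tg had 176 and 290 TPM, Tsf1 49.96 and 52.7, and Hml 3.28 and 1.56. The other 4 genes were low there, with Tig at 0.363 and 0.403, Glt at 0.197 and 0.309, Fbp1 at 0.021 and 0.324, and fon at 0.0577 and 0.0699 TPM. Fbp1 overlapped with both Glt and fon in control.

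Hml is the gene with the closest tie to blood cells in this group. It spans positions 13846054 to 13860001 of chromosome 3L (plus strand) in BDGP6.54, in 26 exonic stretches with 11756 bases. Control libraries held 376 and 221 estimated counts of Hml, and tumor libraries held 4765 and 3698. The groups were far apart, although the control libraries differed by a factor of 2.1 in CPM. Hml rose by 3.71 ± 0.42 on the log2 scale (adjusted p = 0.0055, edgeR). Of its exon bases, 80.1% lie outside every other target, a share that only Fbp1 exceeds among the 7 genes. The tetraspanin gene Tsp68C, 737 bases upstream on the same strand, was at 0 except for 254 counts in tumor 2. CG8745, on the opposite strand, ends 25 bases past the end of Hml. It held 96 and 241 counts for control against 70 and 30 for tumor, a difference that did not pass (adjusted p = 0.094, edgeR). Locus sums of 473 and 463 for control stood against 4835 and 3982 for tumor, which is 3.15 ± 0.17 on the log2 scale (adjusted p = 0.00026, edgeR). In counts not scaled to library totals, the control replicates lay closer together on the locus sum than on the own count.

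By Euclidean distance of centered log2 CPM over the 4 libraries, the genes most like Hml among 6245 compared were GstE2 at 0.36, Miox at 0.44 and AcCoAS at 0.45. GstE2 encodes a glutathione S-transferase, Miox an inositol oxygenase and AcCoAS acetyl coenzyme A synthase. With 2 groups of 2 libraries, likeness of this kind mostly restates a similar rise, here 3.46, 4.50 and 3.30 on the log2 scale. On locus sums these were 1.60, 1.31 and 1.53.

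The clot protein gene fon spans positions 19383138 to 19386205 of chromosome 2L (minus strand), with 2276 exon bases in 5 stretches. Its counts were 3 and 4 for control and 63 and 88 for tumor. They were higher in both tumor libraries but low in all 4. Summed over libraries, the ratio of CPM was 25.7, with an exact 95% interval of 11.5 to 71.2 that covers counting error only. In the fit fon rose by 4.33 ± 0.64 on the log2 scale (adjusted p = 0.0097, edgeR). The call was lost on leaving out control 1 (adjusted p = 0.075), control 2 (adjusted p = 0.07) or tumor 2 (adjusted p = 0.058).

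Each exon base of fon also lies in another target. CG17549, 844 bases away on the same strand, holds 482 of them, and its counts were 299 and 631 for control and 543 and 341 for tumor. CG17350, 44 bases away on the opposite strand, holds 1838 and was at 0 for control and at 27 and 18 for tumor. Together, fon and CG17350 came to 3 and 4 counts for control and 90 and 106 for tumor. The locus sum, most of which is CG17549, was 302 and 635 against 633 and 447. The groups overlapped on this sum, and the log2 fold change was 0.17 ± 0.34 (adjusted p = 0.70, edgeR). Of the locus sum, fon itself held 0.862% and 0.612% for control and 10.0% and 19.7% for tumor.

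Tg, for the enzyme that crosslinks the clot, had the highest counts of the 7. They were 21938 and 44544 for control and 861000 and 786388 for tumor. The tumor libraries differed from each other by a factor of 1.02 in CPM and the control libraries by 1.64, both small beside the rise of 4.60 ± 0.31 on the log2 scale (adjusted p = 0.0022, edgeR). Its target took 0.0532% and 0.0874% of the control counts and 1.81% and 1.84% of the tumor counts. Among all targets it ranked 266 and 169 by count in control and 2 and 1 in tumor. The locus sum rose by 4.58 ± 0.27 (adjusted p = 0.00029, edgeR). Upstream on the other strand lies Glyat, at 367 and 237 counts for control and at 0 in both tumor libraries. CG7367, whose target covers 1921 of the Tg exon bases, was at 0 in all 4 libraries, and CG12560 had 2 and 177 counts against 111 and 121.

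What these counts measure is limited by the target. Tg spans positions 8011405 to 8026898 of chromosome 2L (plus strand), and Tg exons make up 16.1% of its target of 19494 bases. A copia and a Doc transposable element in the long intron make up 50.6%. Copia fills 500 bases or more in 23 targets. Their counts summed to 113044 for control 1, 182840 for control 2, 1452378 for tumor 1 and 1327006 for tumor 2. Tg held 19.4% and 24.4% of this sum in control and 59.3% in each tumor library. The remainder, from copia targets other than Tg, was thus also higher in both tumor libraries. Over the 70 targets with at least 500 bases of Doc, Tg held 13.1% and 19.7% in control and 80.4% and 74.2% in tumor. The Doc targets summed to 168026 and 226305 for control against 1070983 and 1060424 for tumor. Their remainder outside Tg was higher in tumor too. In the copia set 13 of 22 tested targets were higher and 3 lower, with a median log2 fold change of 0.99. In the Doc set 18 of 53 tested targets were higher and 14 lower, with a median of 0.41. Over all tested genes 23.4% were higher and 21.2% lower, with a median of 0.02. The Doc set lay somewhat above both shares, and the copia set lay above the first and below the second. How much of the Tg counts came from exons and how much from elements was not tested, since the files give 1 value per target.

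**Figure D2:**
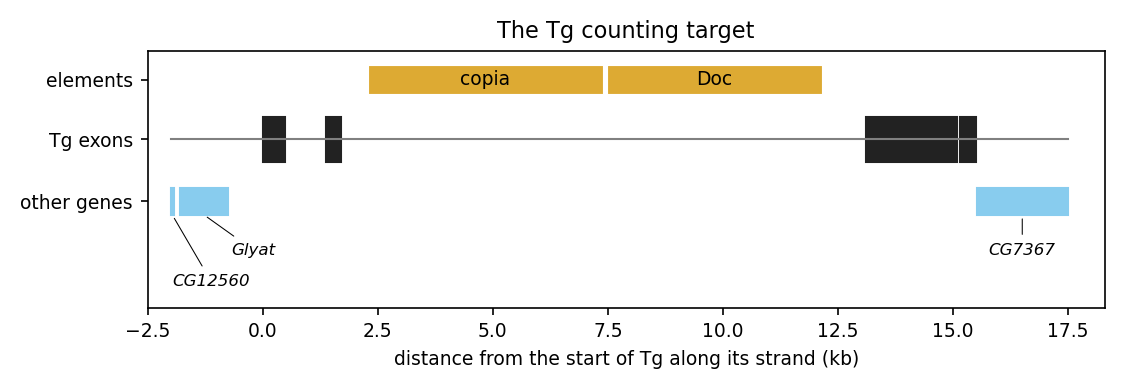
Map of the Tg target to scale, in kilobases from the start of Tg along its strand, with Tg exonic stretches in black, transposable elements in orange and the parts of other genes inside the target in blue. The elements fill most of the long intron of Tg and make up 50.6% of the target.

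Glt and Tig, the matrix genes among the 7, had the highest own-count changes. Glt spans positions 8672698 to 8676804 of chromosome 2L (plus strand). Its counts were 10 and 20 for control and 1254 and 1144 for tumor. The tumor replicates were within a factor of 1.01 in CPM, and the groups were far apart. Glt rose by 6.26 ± 0.37 on the log2 scale (adjusted p = 0.0018, edgeR). However, 89.9% of its exon bases also lie in the targets of Sema1a or CG9287. Sema1a, a semaphorin gene that ends 656 bases before Glt on the same strand, itself rose from 1384 and 1779 counts to 3276 and 3797, by 1.10 ± 0.15 (adjusted p = 0.0084, edgeR). On locus sums, 1398 and 1799 for control stood against 4530 and 4940 for tumor, and the rise was 1.51 ± 0.13 (adjusted p = 0.0007, edgeR). Glt held 0.731% and 1.10% of that sum for control and 27.7% and 23.2% for tumor.

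Tig spans positions 6415179 to 6423310 of chromosome 2L (minus strand). Its counts were 28 and 38 for control and 1594 and 759 for tumor. The tumor libraries differed by a factor of 1.89 in CPM, and the lower of them was still far above either control. Tig rose by 5.07 ± 0.47 on the log2 scale (adjusted p = 0.0038, edgeR). Most of its exon sequence, 64.8%, lies outside other targets. Its neighbors on the other strand were Fic, at 437 and 508 counts for control and 376 and 479 for tumor, and CG13982, at 57 and 52 against 123 and 80. Neither difference passed (adjusted p = 0.58 and 0.25, edgeR). The locus sum changed less, from 522 and 599 to 2093 and 1319, which is 1.52 ± 0.24 (adjusted p = 0.0042, edgeR). Tig held 5.40% and 6.43% of the sum for control and 76.2% and 57.6% for tumor.

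On own counts Tsf1 had the smallest change of the 7 and the smallest SE. It spans positions 18387084 to 18390344 of chromosome X (plus strand), and its counts were 2314 and 3006 for control and 9509 and 8021 for tumor. Replicates differed by factors of 1.05 in control and 1.07 in tumor in CPM, less than the groups did. Tsf1 rose by 1.65 ± 0.09 on the log2 scale (adjusted p = 0.0016, edgeR). The locus sum, to which the coatomer gene betaCOP and the gene Nt5b contribute, went from 11463 and 13976 to 21793 and 21171, which is 0.69 ± 0.07 (adjusted p = 0.0011, edgeR). The values of betaCOP (0.32 ± 0.09, adjusted p = 0.05, edgeR) and Nt5b (0.11 ± 0.15, adjusted p = 0.58, edgeR) did not pass.

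Fbp1 stands alone among the 7 in that its exons lie in no other target. It is on chromosome 3L from 14094589 to 14098053 on the minus strand, and its counts were 1 and 19 for control and 110 and 56 for tumor. The control libraries differed by a factor of 15.4 in CPM, and the lower tumor library was above both. The ratio of summed CPM was 8.48, with an exact 95% counting interval of 5.32 to 14.2. Its log2 fold change became 2.16 on leaving out control 1 and 5.99 on leaving out control 2. Because its locus sum equals its own count, its call on locus sums (3.02 ± 0.96, adjusted p = 0.043, edgeR) differs from the own-count result through the spread borrowed from other genes. That call was lost on leaving out control 1, tumor 1 or tumor 2, with adjusted p of up to 0.14.

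**Figure D3:**
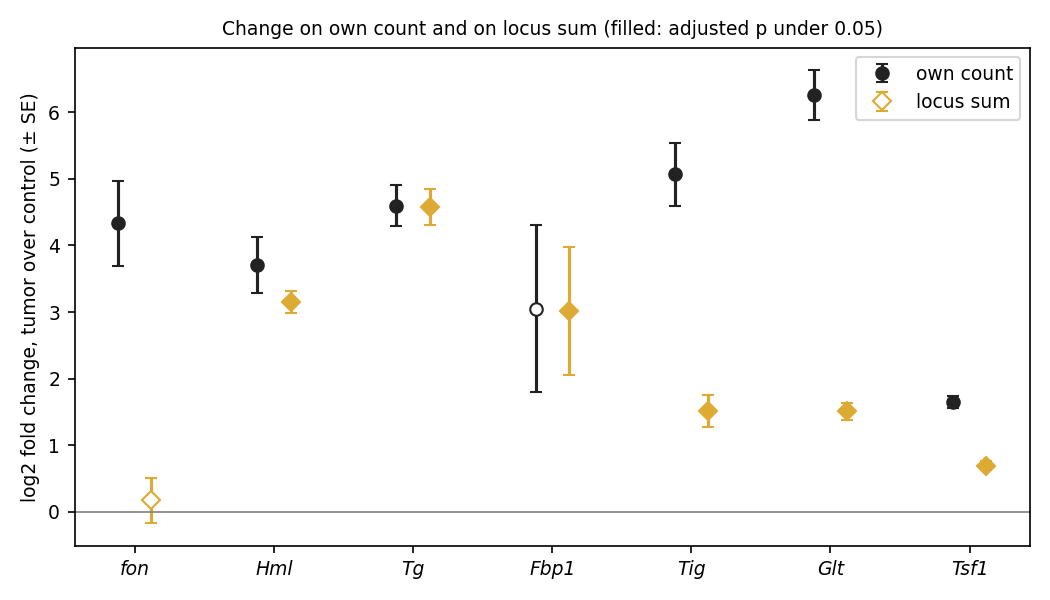
Log2 fold change (tumor over control) and its SE for each gene, on its own count (black circles) and on its locus sum (orange diamonds), filled where the edgeR adjusted p is below 0.05. Tg, Hml and Fbp1 have similar values on both scales, whereas Glt goes from 6.26 to 1.51, Tig from 5.07 to 1.52 and fon from 4.33 to 0.17.

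**Figure D4:**
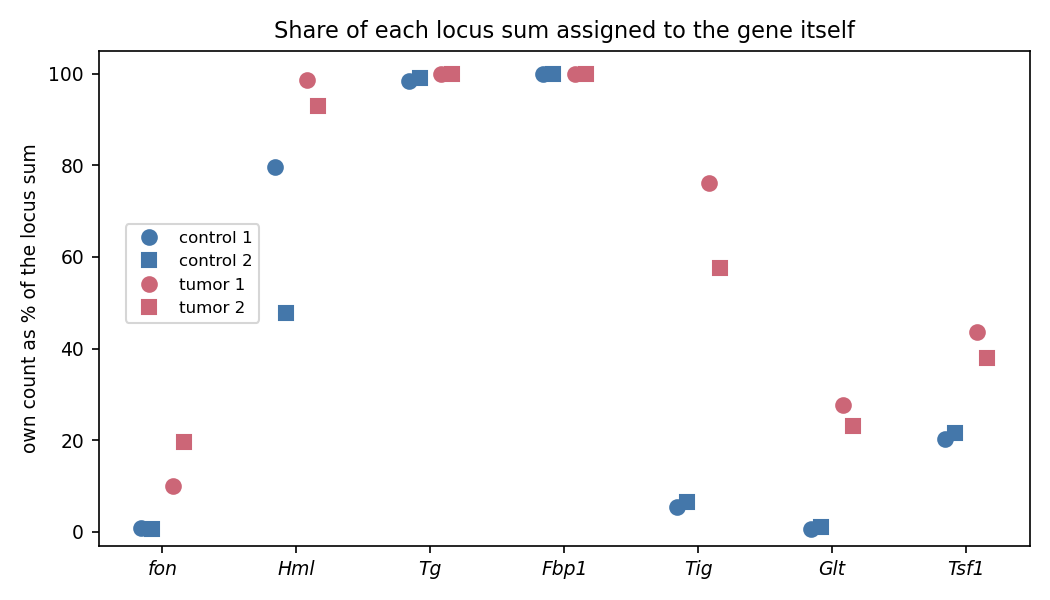
Own count as a percent of the locus sum in each library, with circles and squares for replicates 1 and 2, blue for control and red for tumor. The share is higher in both tumor libraries for fon, Hml, Tig, Glt and Tsf1, is at least 98.3% in every library for Tg and is 100% for Fbp1.

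Other proteins of the hemolymph or the clot were described with a list of 20 genes. Of its 11 tested members 5 rose and 1 fell, and the median log2 fold change was 2.12. On locus sums 7 were higher and 1 lower, with a median of 2.62, the value of Idgf3, which was at 0.85 on its own count. Locus sums of close neighbors can share targets, so higher calls of related genes such as Idgf1, Idgf2 and Idgf3 may not be separate results. The counts of this and the other lists stand beside 23.4% higher and 21.2% lower over all tested genes, and 29.2% and 28.3% on locus sums. Idgf1, Idgf2 and Idgf6 encode chitinase-like proteins secreted into the hemolymph. Idgf1 was at 0 in both control libraries and at 7126 and 7717 counts in tumor. With control set to 3 counts in each library, this own count was at least 2527-fold higher. That bound covers counting error only and not the division of reads among overlapping targets. On the Idgf1 locus sum the rise was 4.08 on the log2 scale. Idgf2 went from 1219 and 1799 counts to 26374 and 18887, a rise of 3.84 ± 0.20 (adjusted p = 0.0016, edgeR), or 2.97 on its locus sum. Apoltp, for a lipid transfer particle protein of the fat body, went from 1 and 4 to 219 and 163, a rise of 6.15 ± 0.75 (adjusted p = 0.0064, edgeR). Idgf6 went from 2716 and 2882 counts to 1251 and 920 and fell by 1.45 ± 0.18 (adjusted p = 0.0067, edgeR).

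Larval serum protein genes had low counts. Lsp1alpha, Lsp1beta and Lsp2 had at most 15 counts in any library, Lsp1gamma had 2 and 11 against 22 and 35, and the hemolymph mucin gene Eig71Ee had at most 3. The phenoloxidase genes PPO1 and PPO2 did not pass on their own counts. PPO1 was at 34 and 0 counts for control and 268 and 455 for tumor, and PPO2 at 46 and 0 and at 387 and 878 (adjusted p = 0.13 and 0.12, edgeR). On locus sums both were higher (adjusted p = 0.011 and 0.048, edgeR). PPO3, another phenoloxidase gene, had 1086 and 1120 counts for control and 657 and 267 for tumor, a log2 fold change of -1.35 that did not pass either (adjusted p = 0.072, edgeR). The larval serum protein, mucin and phenoloxidase genes were named after their values were seen. Among 10 tested proteases and serpins of melanization 3 rose and 1 fell, near the shares over all tested genes, with a median log2 fold change of 0.56. On locus sums 2 were higher and 2 lower, with a median of -0.08. The serpin gene Spn88Ea went from 512 and 454 counts to 11355 and 8804, a rise of 4.29 ± 0.21 (adjusted p = 0.0016, edgeR), or 1.44 on its locus sum. Spn77Ba rose by 3.91 ± 0.38 (adjusted p = 0.0042, edgeR), and nec went from 0 in control to 297 and 169 counts. The own count of nec was at least 79-fold higher on the same floor, again a bound for counting error only. The locus sums of Spn77Ba and nec, at 0.27 and -0.12, did not pass (adjusted p = 0.067 and 0.72, edgeR). Spn28Dc fell by 0.55 ± 0.15 on its own count and was higher by 0.49 on its locus sum (adjusted p = 0.046 for both, edgeR).

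Part of the hemocyte markers were higher too. Of 13 tested markers 6 rose and 2 fell, with a median log2 fold change of 0.82. On locus sums 7 were higher and 4 lower, with a median of 0.80, and the lower ones were Col4a1, vkg, srp (-1.37) and crq (-0.34), of which srp and crq did not pass on their own counts. NimC4, for a receptor that takes up dying cells, went from 63 and 89 counts to 2089 and 2014, a rise of 4.69 ± 0.19 (adjusted p = 0.0012, edgeR), or 3.20 on its locus sum. NimC1, of the same receptor family, went from 10 and 9 to 657 and 627, a rise of 5.98 ± 0.39 (adjusted p = 0.0021, edgeR). Pxn, for the matrix enzyme peroxidasin, rose by 4.37 ± 0.40 (adjusted p = 0.0038, edgeR), but by 1.48 on its locus sum. The type IV collagen genes Col4a1 and vkg, which follicle cells also use, fell by 1.77 ± 0.10 and 1.76 ± 0.11 (adjusted p = 0.0016 and 0.0019, edgeR). Without these 2 genes, a choice made after seeing the values, the other 12 summed to 691 and 704 CPM for control and 1262 and 1501 for tumor. Over all 14 genes the sums were 6946 and 7550 against 3277 and 3626. The marker gcm was at 0 in all 4 libraries. The part of hemocyte content in the results for the 7 genes was not tested.

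Fat body markers gave little signal in either group on their own counts. Of 13 genes 5 passed the filter and 2 rose. None fell, either by edgeR or DESeq2, and 0 were lower at an unadjusted p under 0.05. The median log2 fold change was 0.55, while on locus sums 3 were higher and 0 lower, with a median of 0.71. Beside Apoltp, the lipase gene bmm rose, by 0.55 ± 0.13 (adjusted p = 0.033, edgeR). The list summed to 64.8 and 63.5 CPM for control and 87.2 and 97.9 for tumor. The markers to, fit, Obp99b and Lsd-1 were at 0 in all libraries. No locus sums are given for them, so reads assigned to overlapping targets are not covered. The part of fat body content in the Tsf1 and Fbp1 results was not tested.

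Genes that work with tiggrin and transferrin were examined as well. Among 10 integrin, laminin and thrombospondin genes 6 rose and 1 fell, with a median log2 fold change of 0.85. On locus sums 6 were higher and 1 lower, with a median of 0.42. The gene if, for the integrin alpha subunit that binds tiggrin, went from 973 and 1416 counts to 5563 and 4612, a rise of 2.03 ± 0.14 (adjusted p = 0.0024, edgeR), or 0.42 on its locus sum. Its beta partner mys rose by 0.95 ± 0.09 (adjusted p = 0.0039, edgeR), with a locus sum at 0.23 that did not pass (adjusted p = 0.059, edgeR). The alpha subunit gene scb rose by 1.70 ± 0.22, and mew, another alpha subunit gene, fell by 0.46 ± 0.11 (adjusted p = 0.0074 and 0.03, edgeR). Of 7 tested iron genes 3 rose and 1 fell, with a median of 0.08, while on locus sums 2 were higher and 1 lower, with a median of 0.06. The ferritin genes Fer2LCH and Fer1HCH rose by 1.14 ± 0.14 and 0.75 ± 0.13 (adjusted p = 0.0063 and 0.015, edgeR). Both gave the same locus-sum rise, 0.96 ± 0.13 (adjusted p = 0.0024, edgeR), so they are not separate results on that scale. Mco1, for a multicopper oxidase, rose by 4.33 ± 0.89, and the iron regulatory gene Irp-1A fell by 0.40 ± 0.08 (adjusted p = 0.022 and 0.018, edgeR), and neither passed on its locus sum (adjusted p = 0.20 and 0.17, edgeR). The transferrin relatives Tsf2 and Tsf3 were not tested, with Tsf2 at 0 in all libraries and Tsf3 at 0 in all but control 2, which had 148 counts.

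**Figure D5:**
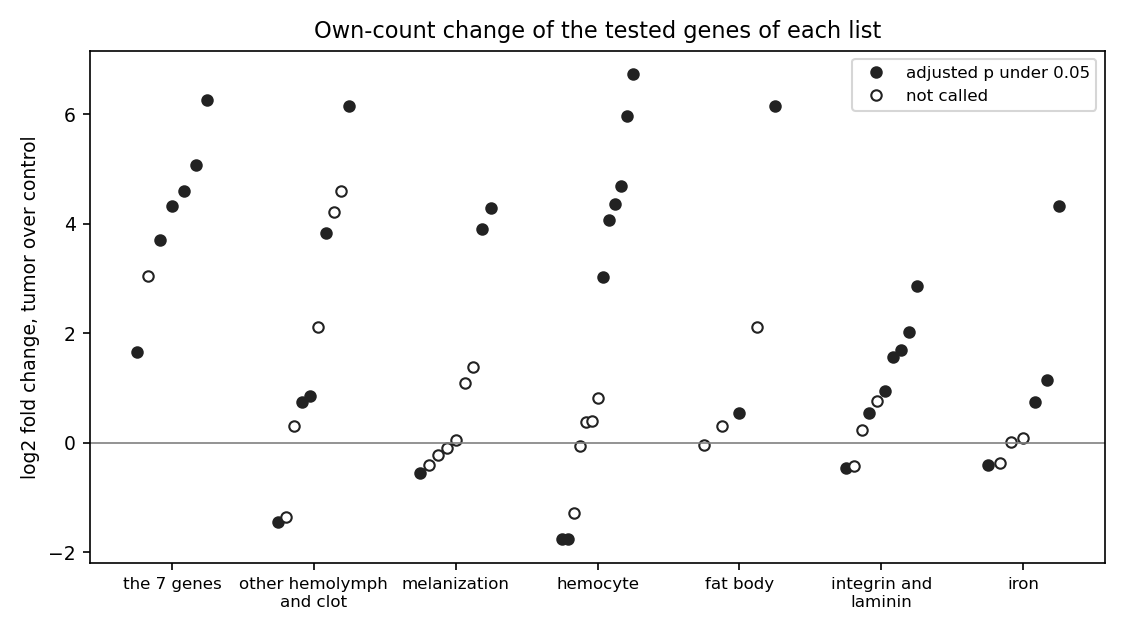
Own-count log2 fold change, tumor over control, of the tested genes of each list, sorted within the list, filled where the edgeR adjusted p is below 0.05. Idgf1 and nec, listed at 0 in control, are not drawn. The 7 genes lie between 1.65 and 6.26, while each of the other lists drawn here holds values on both sides of 0. All were chosen with earlier results of these data known, and on locus sums, not drawn here, fon is at 0.17. Follicle, germline and muscle markers are not drawn.

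Markers of germline, follicle and muscle cells differed between the groups as well. Of 10 tested germline markers 9 fell, and their sum went from 792.5 and 806 CPM for control to 137 and 148 for tumor. On locus sums 7 were lower and 2, bgcn and Rbp9, were higher, with a median log2 fold change of -0.86 in place of -4.65, and Rbp9 turned from -2.46 to 0.52 (adjusted p = 0.0094 and 0.016, edgeR). Of 14 tested follicle cell markers 3 rose and 7 fell, with sums of 4813 and 5039 against 2332 and 2585, and the counts were the same on locus sums. The higher markers are near the share of 23.4% over all tested genes. Of 11 tested muscle sheath markers 5 fell, with sums of 416 and 720 against 310 and 227, and on locus sums 5 were lower and 1, sls, was higher. The genes bgcn, Rbp9 and sls were named after their values were seen. On their own counts no germline or muscle marker was higher by edgeR, by DESeq2 or at an unadjusted p under 0.05. The genes carried by the transgenes were higher in tumor, aPKC at 1910 and 2482 counts against 54944 and 73836 and Ras85D at 676 and 215 against 102550 and 109225. The part of these differences in the values of the 7 genes was not tested.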

How the data were processed

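The 4 libraries, 2 per genotype, were grouped and numbered by their sample titles. The submitters' processing notes name kallisto as the quantifier, and its version, genome build, annotation and strand setting were not given in the sources used here. The authors deposited, per the file headers, target lengths, estimated counts (reads divided among targets, often not whole) and TPM (counts per effective length, scaled to a common total). Symbols were found for 17668 of 17773 gene identifiers. In 17551 of these (99.3%) the target is 4000 bases longer than the gene in the Ensembl release 115 annotation of BDGP6.54, the source of all coordinates. An exon of another listed gene lies in 90.2% of targets.

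Rounded estimated counts were fitted with edgeR 4.0.16 in R 4.3.3 (filterByExpr, TMM, glmQLFit, glmQLFTest), with group as the only term, and two-sided p-values were adjusted by Benjamini-Hochberg at a threshold of 0.05. The biological coefficient of variation was 0.36. The SE is the log2 fold change divided by the square root of the F statistic. Locus sums used the filter, totals and TMM factors of the own counts. Replicates varied beyond counting noise (chi-square over degrees of freedom 96.1 for control, 139 for tumor). Counting intervals are exact (Clopper-Pearson, 95%), and the floor for genes at 0 was 3 counts per library. Both cover counting error only. On simulated counts the fit recovered most of the larger changes and none of the smaller ones, so a difference that did not pass is not shown to be absent. Alternatives were DESeq2 1.42.0 and its size factors, limma 3.58.1 (voom, and trend on log2(TPM + 1) or log2(TPM + 0.1)), other scalings and filters, a replicate block and leaving out each library. Python 3.11.15, pandas 2.3.3, scipy 1.17.1 and matplotlib 3.10.9 served for joins, intervals and figures.

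The 7 genes and the lists were chosen with earlier results of these data known. Named genes were the 7, their overlapping neighbors, up to 3 called genes per list and direction with the smallest adjusted p, and the 3 genes nearest to Hml with a mean log2(CPM + 1) of at least 3. Follicle, germline and muscle lists are given as counts and sums. Of 11 germline symbols 10 matched, and the other was not used here.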

Additional observations from a re-analysis of the deposited data

How the results depend on the processing

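Hml, Tg, Tig, Glt and Tsf1 stayed higher in tumor and past the threshold under all 16 alternatives, with adjusted p of up to 0.034. For Tg, none of these separates reads of exons from reads of the copia and Doc elements in its target. The number of the 7 genes called higher was 5 to 7, and 0 were called lower under any of them. Fbp1 passed on log2(TPM + 1) (adjusted p = 0.02), on log2(TPM + 0.1) (adjusted p = 0.034) and on locus sums (adjusted p = 0.043), and its log2 fold change ranged from 1.21 to 5.99. On locus sums fon was at -0.18 on leaving out control 1, -0.06 on leaving out tumor 1 and 0.61 on leaving out control 2, and 5 or 6 of the 7 genes were called across 13 alternatives. The Fbp1 call on locus sums was also lost with upper-quartile factors (adjusted p = 0.053) and with the replicate block (adjusted p = 0.067). Among all genes, leaving out a library gave 1095 to 1495 higher and 760 to 1507 lower. Scaling on ribosomal protein genes gave 4426 higher and 902 lower, or 6253 and 631 on locus sums, and moved the median log2 fold change of all genes to 0.67 (0.65 on locus sums). Library totals moved it to 0.12, and the TPM scale to 0.21 and 0.25. Of locus-sum calls 50.8% were higher, and 40.5% with upper-quartile factors and 90.8% with ribosomal scaling. The replicate numbers mark no stated pairing, and same-numbered libraries did not deviate together (r = -0.02 across genes). With a replicate block 1533 genes were higher and 1305 lower, and 6 of the 7 genes were called higher. The cause of these shifts was not tested. Control libraries held at most 4 counts of fon and 19 of Fbp1.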
